A study of Caenorhabditis elegans with 6 samples.

Results

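The enzymes that take sphingolipids apart in Caenorhabditis elegans are described here in 9 genes of 3 families, out of 46904 gene IDs in the data. The genes were gba-1, gba-2, gba-3 and gba-4, which encode glucosylceramidases, asm-1, asm-2 and asm-3, which encode acid sphingomyelinases, and asah-1 and asah-2, which encode acid ceramidases. They were found by matching symbols to WormBase gene IDs, and all 9 had enough counts to be tested. The set was chosen by the expected counts of gba-2 and asm-2, which were higher in caffeine-treated animals than in controls, and the other members were set beside them as paralogs.

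RNA came from whole bodies of hermaphrodites of the wild-type strain N2, kept from the L4 larval stage at 25 °C on agar seeded with OP50 bacteria and collected on day 3 of adulthood. The 3 control samples received 0 mM caffeine and the 3 caffeine samples 10 mM, mixed into the agar for 72 h. Caffeine is a plant methylxanthine. The 2 groups shared strain, genotype, sex, stage, food and temperature, and each biological replicate pooled about 300 worms, so variation between single animals was not measured.

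Sphingolipids are membrane lipids built on a long-chain amino alcohol, the sphingoid base. Joined to a fatty acid the base becomes ceramide, and ceramide carrying a sugar or phosphocholine becomes glucosylceramide or sphingomyelin. In lysosomes, the acidic compartments that digest cell material, the reverse path runs through enzymes of these families. Glucosylceramidase removes glucose and acid sphingomyelinase removes phosphocholine, each leaving ceramide, and acid ceramidase then splits ceramide into sphingoid base and fatty acid. In humans, loss of the matching enzymes causes the lysosomal storage disorders Gaucher disease, Niemann-Pick disease and Farber disease. The study's stated interest was caffeine and the breakdown of lipids in lysosomes.

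The 9 genes lie on 4 chromosomes (WBcel235 coordinates, Ensembl release 115). gba-1 (II:2176741-2182510, plus strand) and gba-2 (II:2182494-2186434, minus strand) stand tail to tail and share 17 bases, which fall in the last exon of each gene. gba-3 (IV:17473334-17479397, plus strand) and gba-4 (IV:5344592-5350897, minus strand) lie apart from each other on chromosome IV. asm-1 (II:6910072-6912659, plus strand), asm-2 (X:11321079-11324251, minus strand) and asm-3 (IV:520214-523809, minus strand) are on 3 different chromosomes. asah-1 (I:12505114-12507569, plus strand) and asah-2 (II:10139590-10141406, plus strand) are also on different chromosomes. The longest annotated proteins ran from 516 to 525 residues in the gba family, from 564 to 618 in the asm family and from 393 to 401 in the asah family.

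**Figure D1:**
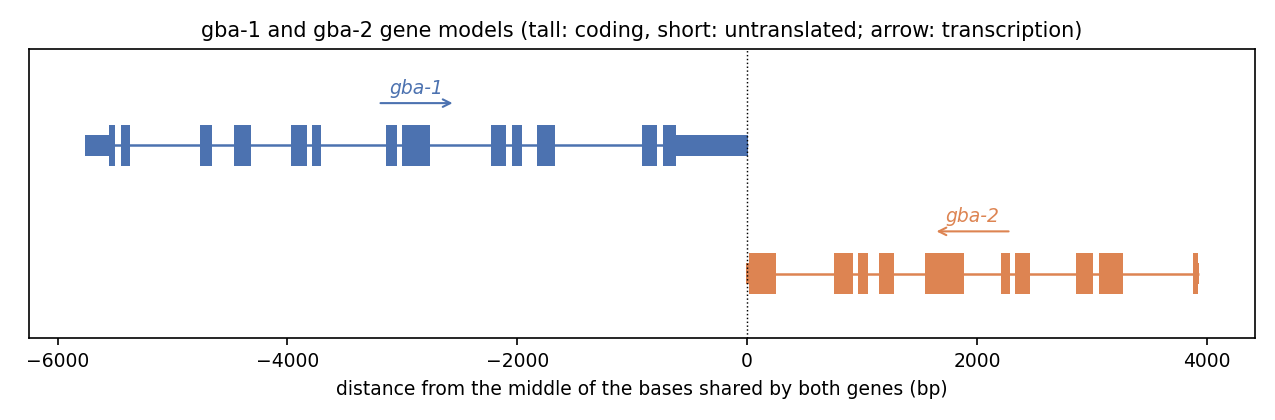
Gene models of gba-1 and gba-2, with the x axis giving the distance in base pairs from the middle of the bases that both genes share. The genes are transcribed towards each other and overlap by 17 bases, and gba-1 has the longer untranslated end at that side.

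Overlaps with other genes limit some of the values, since the sources used here do not say whether strand was used in counting. asm-1 shares 120 exonic bases with cyn-10, a cyclophilin gene on the opposite strand, which had a mean of 65.2 CPM (counts scaled to a common library total) in controls and 70.4 with caffeine. Reads from those bases could not be assigned to asm-1 or cyn-10 with certainty without strand, and the same holds for the 17 bases of gba-1 and gba-2. asah-2 shares 32 exonic bases with F27E5.3, which averaged 0.259 CPM in controls and 0.196 with caffeine. The protein-coding genes F11E6.9 and grl-24 lie within gba-3 on the opposite strand and share no exonic bases with it. F11E6.9 averaged 0.133 CPM in controls and 0.144 with caffeine, and grl-24 averaged 0.00839 and 0. Small RNA genes of the piRNA class lie within gba-3 (2 genes) and gba-4 (15 genes), and all of these were at 0. The libraries were made from polyadenylated RNA, so these values give no measure of small RNA. asm-1 was the member with expected counts that were not whole, in 3 libraries, as occurs where a read is divided between genes.

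The libraries held between 40417780 and 40746556 counts. On the first principal component, the main axis of difference among libraries over the 500 genes that varied most (75.05% of their variance), control libraries scored between -41.4 and -25.1 and caffeine libraries between 16.5 and 40.3, with caffeine library 1 nearest to the controls. Genes were compared with edgeR's quasi-likelihood test, and a gene was called at a Benjamini-Hochberg adjusted p under 0.05 over 14200 tested genes. Under this rule 24.3% of all tested genes were called, 13.8% higher with caffeine and 10.5% lower. Leaving out 1 library at a time gave between 1209 genes (without control library 2) and 2264 genes (without caffeine library 1) higher, against 1962 with all libraries. The same fits gave between 698 and 2512 genes lower, against 1488, with the extremes at the same libraries. The groups did not overlap, with caffeine higher, in 23.3% of tested genes, and with caffeine lower in 20.9%.

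Whole animals mix many cell types, and in such samples fewer cells of a type cannot be told apart from less RNA per cell. The summed level of 6 intestinal marker genes was between 347 and 377 CPM in control libraries and between 193 and 218 in caffeine libraries. Of these, act-5, pept-1 and elt-2 were called lower (log2 fold changes of -1.12, -1.15 and -0.69), while elt-7, ges-1 and ifb-2 were not called. The 5 markers of body wall muscle summed to between 299 and 322 CPM in controls and between 391 and 535 with caffeine, with 2 of 5 called higher. The 6 neuronal markers summed to 226 to 237 and 249 to 252 CPM, with 3 called higher and 1 lower. The 10 oocyte and germline markers summed to 11344 to 11956 and 9286 to 12072 CPM, with 1 called lower. The 11 sperm markers summed to 8.72 to 21.9 and 7.31 to 10.6 CPM, with 2 of 8 tested lower, and peel-1 was at 0 in 2 caffeine libraries. Early embryonic markers, 6 in number, summed to 4.20 to 6.44 and 2.81 to 4.37 CPM with 2 of 4 tested lower, and med-1 and med-2 were at 0 in some libraries. Hypodermal markers, 5 in number, summed to 17.2 to 25.4 and 13.0 to 25.8 CPM with 1 lower, and rol-6 was at 0 in control library 2. The part of these marker levels in the values of the sphingolipid genes was not tested.

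Because the set was assembled on the caffeine contrast, differences of its members between the groups are given as descriptions, with a standard error (SE) or 95% interval and no p-value. By the rule above, 5 of the 9 genes were called higher and 1 lower, beside 13.8% and 10.5% of all tested genes, and nothing is read from that count. All 5 of the higher genes were at least 2-fold higher, as were 5.94% of all tested genes by the same rule. That number was 3 without control library 3, where gba-1 and asah-1 had log2 fold changes of 0.97 and 0.93, and 4 without caffeine library 2 or 3. The same 6 genes were those whose groups did not overlap. Among all tested genes, 23.3% did not overlap with caffeine higher and 20.9% with caffeine lower. The median log2 fold change of the 9 was 1.05, with a range from -0.76 to 4.73, where the median of all tested genes was 0.00 (-0.000683).

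The glucosylceramidase genes went in different directions. gba-2 had expected counts of 63, 98 and 84 in control libraries and 1758, 2387 and 2582 in caffeine libraries. Every caffeine library held far more than any control library, and the lowest caffeine value was that of library 1. Scaled for library size, gba-2 went from 2.04 ± 0.456 to 54.4 ± 8.70 CPM (mean ± SD, n = 3 each), a log2 fold change of 4.73 (SE 0.18) or 26.6-fold. It held place 32 of 14200 when all tested genes were ordered by log2 fold change from the top.

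gba-1, the tail-to-tail neighbour of gba-2, had counts of 991, 906 and 792 in controls and 1630, 2241 and 1883 with caffeine. The groups did not overlap, and the difference was much smaller than that of gba-2. The scaled level was 22.4 ± 2.41 against 46.5 ± 4.89 CPM (mean ± SD, n = 3 each), a log2 fold change of 1.05 (SE 0.11) or 2.08-fold.

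gba-4 was lower with caffeine. Its counts were 1497, 1314 and 1231 in controls and 838, 814 and 788 with caffeine, and every caffeine library lay below every control library. The scaled level was 33.6 ± 3.20 against 19.8 ± 1.54 CPM (mean ± SD, n = 3 each), a log2 fold change of -0.76 (SE 0.09), so that the caffeine level was 0.590 times the control level. Caffeine library 1 had the highest gba-4 level of its group, whereas it had the lowest level of gba-1, gba-2 and gba-3.

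gba-3 had counts of 193, 154 and 182 in controls and 111, 220 and 159 with caffeine. The caffeine libraries spread wider than the controls and lay on either side of them. The log2 fold change was -0.16 with a 95% interval from -0.64 to 0.32, and it was 0.019 without caffeine library 1, so its sign rested on that library.

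**Figure D2:**
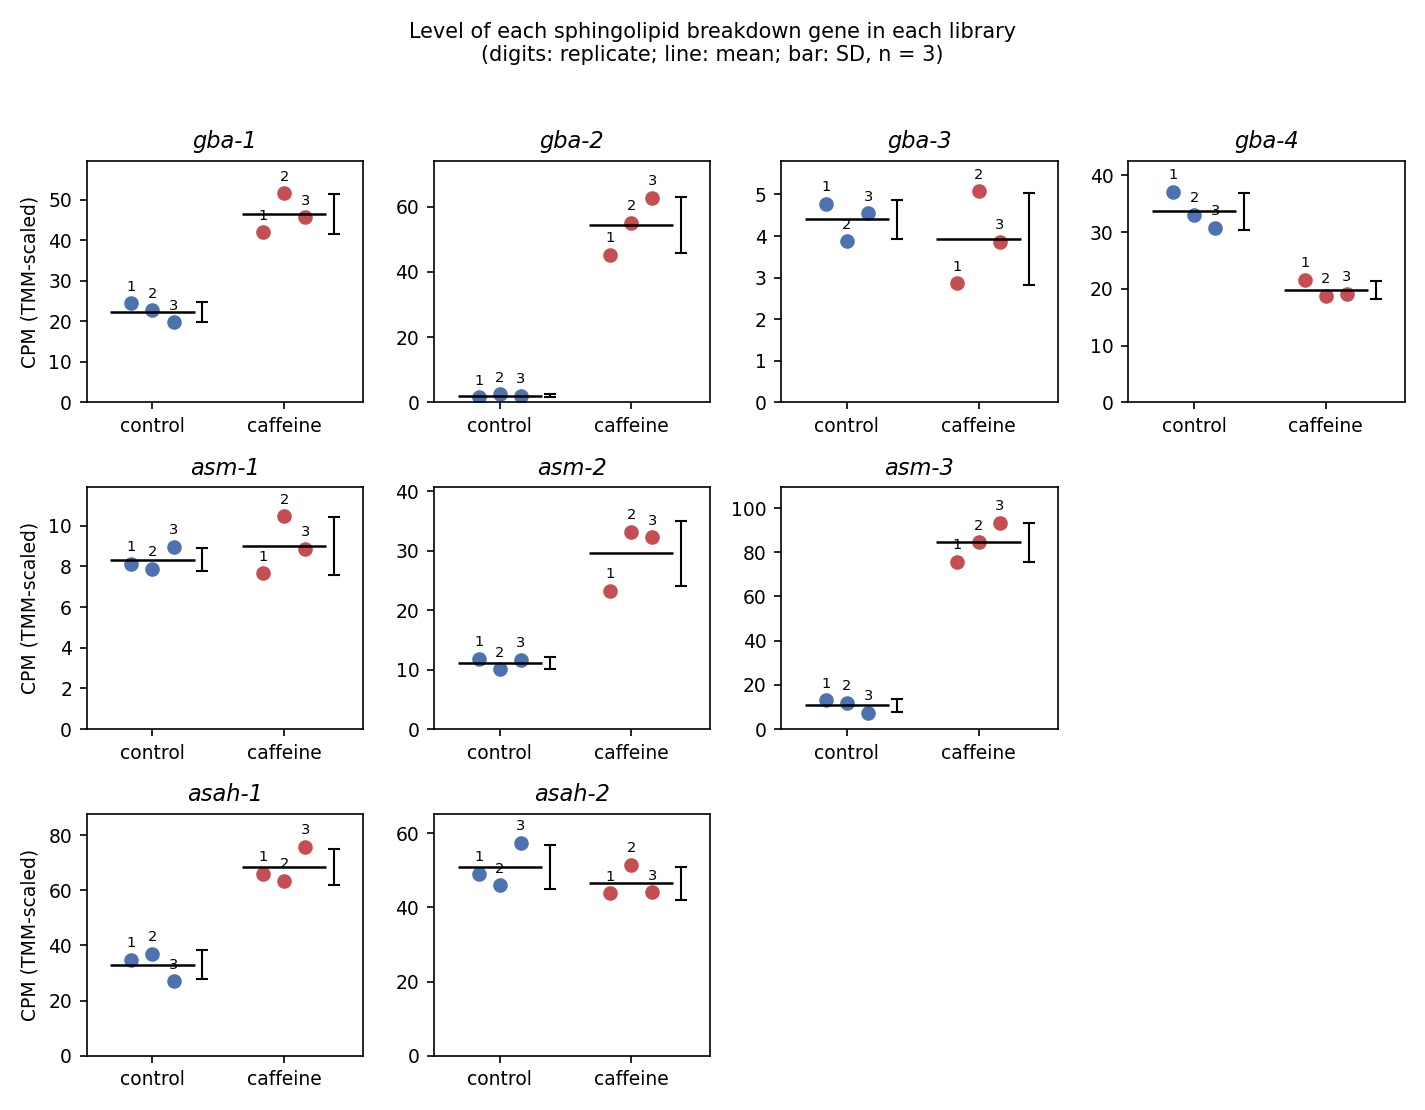
Level of each gene in CPM (y axis, from 0) in the 3 control (blue) and 3 caffeine (red) libraries, with the replicate number at each point, the mean as a line and the SD as a bar. Caffeine points lie above all control points for gba-1, gba-2, asm-2, asm-3 and asah-1 and below them for gba-4, and the groups overlap for gba-3, asm-1 and asah-2.

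Among the acid sphingomyelinase genes the largest difference was that of asm-3, a gene that work in worms has tied to insulin-like signalling and lifespan. asm-3 had counts of 527, 469 and 299 in controls and 2938, 3665 and 3846 with caffeine. The groups lay far apart, and control library 3 was the lowest of all. The scaled level went from 10.8 ± 2.93 to 84.5 ± 8.81 CPM (mean ± SD, n = 3 each), a log2 fold change of 2.97 (SE 0.19) or 7.84-fold. asm-3 held place 98 of 14200 by log2 fold change, ahead of asm-2 at place 495.

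asm-2 had counts of 476, 398 and 467 in controls and 901, 1439 and 1328 with caffeine. No caffeine library reached down to the controls, and caffeine library 1 was again the lowest of its group. The scaled level was 11.2 ± 0.987 against 29.6 ± 5.50 CPM (mean ± SD, n = 3 each), a log2 fold change of 1.41 (SE 0.15) or 2.65-fold.

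asm-1 had expected counts of 328, 313.01 and 359.03 in controls and 297, 454 and 365.02 with caffeine. The groups overlapped, with the lowest and the highest value both in caffeine libraries. The log2 fold change was 0.11 with a 95% interval from -0.19 to 0.42. Without caffeine library 2 it was -0.0099, so its sign rested on that library. The 95% intervals of asm-2 and asm-3 ran from 1.07 to 1.74 and from 2.54 to 3.40.

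The acid ceramidase genes differed from each other as well. asah-1 had counts of 1408, 1467 and 1081 in controls and 2563, 2752 and 3125 with caffeine. All caffeine libraries lay above all controls. The scaled level went from 32.9 ± 5.24 to 68.5 ± 6.52 CPM (mean ± SD, n = 3 each), a log2 fold change of 1.06 (SE 0.12) or 2.08-fold. asah-2 had counts of 1982, 1826 and 2300 in controls and 1699, 2231 and 1816 with caffeine, and the groups overlapped. Its log2 fold change was -0.13, with a 95% interval from -0.36 to 0.10.

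Levels of different genes were compared per kilobase of annotated exons. In control libraries the order of mean levels was asah-2 (39.9 ± 4.66 CPM per kilobase, SD, n = 3), asah-1 (26.3 ± 4.19), gba-4 (20.3 ± 1.93), gba-1 (9.31 ± 1.00), asm-2 (5.77 ± 0.511), asm-3 (5.64 ± 1.53), asm-1 (4.65 ± 0.319), gba-3 (2.25 ± 0.240) and gba-2 (1.29 ± 0.287). Neighbours in this order had overlapping ranges in 3 of 8 cases, namely asah-1 with gba-4, asm-2 with asm-3 and asm-3 with asm-1. The gene with the lowest level in controls was thus gba-2, and the gene with the highest was asah-2.

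In caffeine libraries the order was asah-1 (54.7 ± 5.21 CPM per kilobase, SD, n = 3), asm-3 (44.2 ± 4.61), asah-2 (36.4 ± 3.41), gba-2 (34.2 ± 5.48), gba-1 (19.3 ± 2.03), asm-2 (15.3 ± 2.85), gba-4 (11.9 ± 0.927), asm-1 (5.03 ± 0.790) and gba-3 (2.01 ± 0.567). Here asm-3 with asah-2, asah-2 with gba-2 and asm-2 with gba-4 overlapped. gba-2 stood at place 9 among the controls and place 4 with caffeine, asm-3 at places 6 and 2, and gba-4 at places 3 and 7. asm-1 and gba-3 were near the bottom of the order in each group. The control order did not change when library totals replaced the scaling factors. Per kilobase of the longest coding sequence, a length chosen after the data were seen, asm-2 and asm-3 exchanged places in controls, and gba-1 stood at 29.6 ± 3.12 with caffeine beside 35.1 ± 5.62 for gba-2, with ranges that overlapped.

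Within the gba family the leading paralog differed between the groups. On the per-kilobase scale gba-4 held 61.2% ± 0.832 of the summed gba level in controls and 17.9% ± 3.14 with caffeine (mean ± SD, n = 3 each). gba-2 held 3.93% ± 1.05 in controls and 50.5% ± 3.93 with caffeine. The share of gba-1 was 28.1% ± 0.900 and 28.7% ± 2.14, and that of gba-3 was 6.82% ± 0.816 and 2.96% ± 0.668. These shares depend on the length used. Per kilobase of the longest coding sequence, gba-2 stood at 35.1 and gba-1 at 29.6 of a summed 79.97 with caffeine. In controls gba-2 stood at 1.32 and gba-1 at 14.3 of a summed 39.98. The summed gba level was 36.0, 32.96 and 30.4 CPM per kilobase in the control libraries and 60.5, 70.1 and 72.0 in the caffeine libraries, a ratio of means of 2.04. Without gba-2 the sum was 31.8 ± 2.97 and 33.3 ± 1.86, a ratio of 1.05, or 1.16 per kilobase of coding sequence.

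In the asm family, asm-2, asm-3 and asm-1 took similar shares in controls, at 36.1% ± 3.86, 34.8% ± 7.51 and 29.1% ± 3.91 of the summed per-kilobase level (mean ± SD, n = 3). With caffeine asm-3 held 68.6% ± 2.61, asm-2 23.6% ± 2.02 and asm-1 7.79% ± 0.847. The summed asm level was 17.5, 15.8 and 14.95 CPM per kilobase in controls and 55.9, 67.2 and 70.4 with caffeine, a ratio of means of 4.02. Without asm-3 the ratio was 1.95. In the asah family asah-2 held 60.2% ± 6.60 in controls and 40.01% ± 4.03 with caffeine. The summed asah level was 66.4, 65.6 and 66.7 CPM per kilobase in controls and 87.2, 91.1 and 95.2 with caffeine, a ratio of 1.38.

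**Figure D3:**
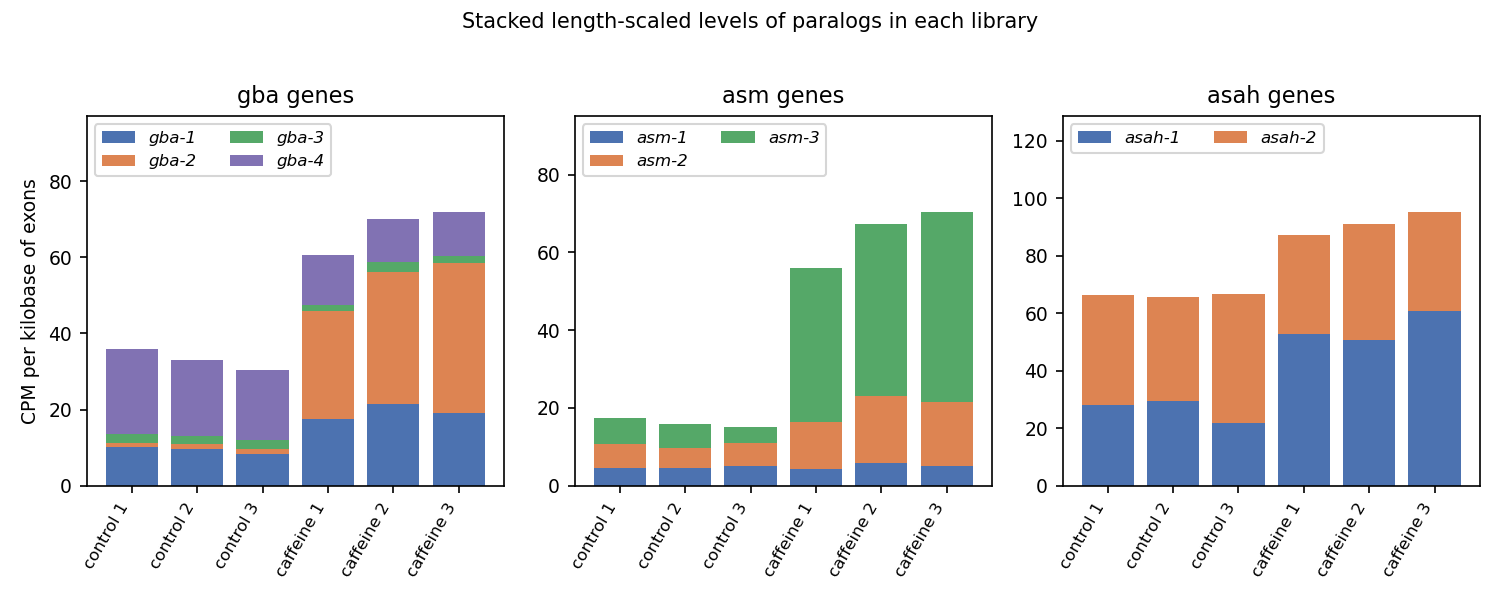
Stacked levels of the paralogs of each family in each library, in CPM per kilobase of exons (y axis, from 0). The gba stack is mostly gba-4 in controls and mostly gba-2 and gba-1 with caffeine, asm-3 makes up most of the asm stack with caffeine, and asah-1 and asah-2 exchange order.

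The 9 genes together took between 0.0167% and 0.0184% of the counts in control libraries and between 0.0315% and 0.0399% in caffeine libraries. Caffeine library 1 had the lowest level of its group in 7 of the 9 genes, and was also the caffeine library nearest to the controls on the first principal component. Its removal left the 5 higher and 1 lower calls in place, though the set was chosen on these same libraries. Within groups, the coefficient of variation over 3 libraries ran from 6.86% (asm-1) to 27.2% (asm-3) in controls and from 7.76% (gba-4) to 28.2% (gba-3) with caffeine.

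Protein-coding genes beside the members were examined to see whether the differences extended along the chromosome. The members had 16 such neighbours that were not members themselves, of which 13 were tested and 1 was called, beside 24.3% of all tested genes. Among the 16, grl-24 lies within gba-3 and was not tested, so the gene past gba-3 on that side was not examined. The called gene was Y4C6B.7, 513 bp from gba-4, which rose from 10.9 ± 0.171 to 15.2 ± 0.735 CPM (mean ± SD, n = 3 each) while gba-4 was lower. Its log2 fold change was 0.47 (SE 0.08), with an adjusted p of 0.00555 in edgeR's quasi-likelihood test, and it is named because it was the one neighbour called. mtq-2, 714 bp from gba-2, had a log2 fold change of -0.17 (SE 0.10). hizr-1, which encodes a nuclear receptor for zinc and directly abuts asm-2, had 0.40 (SE 0.18). pig-1, a protein kinase gene 756 bp from asm-3, had 0.00 (0.00288, SE 0.06), and unc-101, an adaptor protein gene 729 bp from asah-1, had -0.04 (SE 0.05). The largest difference was that of ZK455.5, 58 bp from asm-2, at 0.63 (SE 0.25), followed by rabr-2 beside gba-3 at 0.51 (SE 0.41). Neither was called. The 13 tested neighbours ran from -0.32 to 0.63, with a median of 0.11. ZK455.5, rabr-2, W03G1.2 and phg-1 had group means under 1 CPM, which limits what could be called among them.

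The genes most like gba-2 and asm-2 in their pattern were sought among 9812 tested genes whose mean count was at least 100. Likeness was the root mean square difference of log2 CPM over the 6 libraries after each gene was centred on its own mean, so it mostly follows the difference between the groups that chose gba-2 and asm-2. Nearest to gba-2 were C40H1.8 (difference 0.203 on the log2 scale), the glucuronosyltransferase gene ugt-25 (0.353) and the cytochrome P450 gene cyp-35A2 (0.354). C40H1.8 had counts of 10, 15 and 12 in controls and 211, 371 and 349 with caffeine. It thus reached a mean count of 100 only through the caffeine libraries. ugt-25 had 424, 384 and 272 against 6102, 9005 and 8362. Nearest to asm-2 were F41G3.10 (0.0758), T03E6.8 (0.0777) and E02H4.7 (0.0832), whose log2 fold changes were 1.31 (SE 0.15), 1.44 (SE 0.18) and 1.29 (SE 0.19). T03E6.8 had counts of 59, 47 and 57 in controls and 124, 181 and 153 with caffeine. It too reached a mean of 100 only through the caffeine libraries.

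In lists that do not hold every gene of the pathway, other steps of sphingolipid metabolism were described by 22 further genes, all of them tested. Of these, 8 rose and 4 fell, beside 13.8% of all tested genes higher and 10.5% lower, with a median log2 fold change of 0.07. Of the 8, cgt-2 and sms-5 were at least 2-fold higher. The counts of higher and lower genes were 5 and 2 without control library 1, 5 and 1 without control library 2, 4 and 2 without control library 3, and 5 and 2 without caffeine library 3. They were 9 and 6 without caffeine library 1 and 8 and 4 without caffeine library 2. hyl-1, cgt-2, gana-1, bgal-1 and bgal-2 stayed past the threshold in every alternative that was run. All adjusted p-values below come from edgeR's quasi-likelihood test with Benjamini-Hochberg adjustment.

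Lysosomal glycosidases, which trim sugars from glycolipids and glycoproteins, and the saposin precursor made up a list of 5 genes, of which 4 were called higher and 0 lower, beside 13.8% and 10.5% of all tested genes. The 4 were the glycosidase genes, and 3 of them were called without control library 1, 2 or 3 or with a replicate block. gana-1, an alpha-galactosidase gene, had counts of 129, 142 and 156 in controls and 217, 311 and 276 with caffeine, and its log2 fold change was 0.87 (SE 0.14) at an adjusted p of 0.00379. The beta-galactosidase genes bgal-1 and bgal-2 rose with log2 fold changes of 0.46 (SE 0.09, adjusted p 0.00931) and 0.48 (SE 0.10, adjusted p 0.0128). hex-1, a beta-hexosaminidase gene, rose at 0.28 (SE 0.08) with an adjusted p of 0.0377, which became 0.0938, 0.112 and 0.107 without control library 1, 2 or 3. spp-10, a prosaposin-like gene whose products in mammals help such hydrolases reach their lipids, had -0.20 (SE 0.07) and an adjusted p of 0.0798, or 0.0456 if caffeine library 2 was left out.

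Genes that place a head group on ceramide (glucosyltransferases, sphingomyelin synthases and a ceramide kinase) numbered 8. Of these, 2 were called higher and 2 lower, beside 13.8% and 10.5% of all tested genes. Among the ceramide glucosyltransferases, cgt-2 had counts of 93, 111 and 107 in controls and 230, 340 and 287 with caffeine, and its log2 fold change was 1.42 (SE 0.15) at an adjusted p of 0.000473. cgt-3 fell at -0.20 (SE 0.06) with an adjusted p of 0.0492, which lay between 0.0579 and 0.156 whichever library was left out. cgt-1 had -0.45 (SE 0.21, adjusted p 0.149).

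Among the sphingomyelin synthase genes, sms-5 rose at 1.26 (SE 0.29, adjusted p 0.0172) on 22 to 35 counts in controls and 57 to 92 with caffeine, and its adjusted p was 0.0590, 0.0505 and 0.0608 without control library 2, control library 3 or caffeine library 3. sms-2 fell at -0.43 (SE 0.11, adjusted p 0.0261), and its adjusted p lay between 0.0508 and 0.0924 without any of the control libraries or without caffeine library 3. sms-1 and sms-3 had -0.07 (SE 0.07) and -0.24 (SE 0.08) with adjusted p of 0.500 and 0.0564, or 0.0414 and 0.0493 if caffeine library 1 was left out. The ceramide kinase gene cerk-1 had 0.08 (SE 0.06, adjusted p 0.399).

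Of 7 genes of sphingoid base and ceramide synthesis, 2 rose and 2 fell, beside 13.8% and 10.5% of all tested genes. Each of these changes was less than 2-fold. The ceramide synthase genes differed in direction. hyl-1 fell from 128 ± 1.65 to 94.6 ± 2.90 CPM (mean ± SD, n = 3 each), a log2 fold change of -0.44 with an SE of 0.05 and an adjusted p of 0.000566, and hyl-2 rose at 0.26 (SE 0.06, adjusted p 0.0162). The call of hyl-2 was lost without control library 1, control library 3 or caffeine library 3 (adjusted p 0.0617, 0.0669 and 0.0527). lagr-1, the third ceramide synthase gene, had 28 to 54 counts per library and 0.08 (SE 0.33, adjusted p 0.878).

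ttm-5, a sphingolipid desaturase gene, fell at -0.45 (SE 0.10, adjusted p 0.0117, 0.0576 without control library 2). Among the serine palmitoyltransferase genes, which make the sphingoid base, sptl-1 rose at 0.20 (SE 0.05, adjusted p 0.0203). Its adjusted p was 0.0989, 0.0731, 0.0670 and 0.0722 without control library 1, 2 or 3 or caffeine library 3. sptl-3 had 0.22 (SE 0.07, adjusted p 0.0576, 0.0153 without caffeine library 1) and sptl-2 had -0.23 (SE 0.09, adjusted p 0.0952). Neither gene of sphingosine phosphate turnover was called, beside 24.3% of all tested genes. The sphingosine kinase gene sphk-1 had 0.06 (SE 0.07, adjusted p 0.545), and the lyase gene spl-1 had -0.14 (SE 0.05, adjusted p 0.0585, 0.0381 without caffeine library 1).

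**Figure D4:**
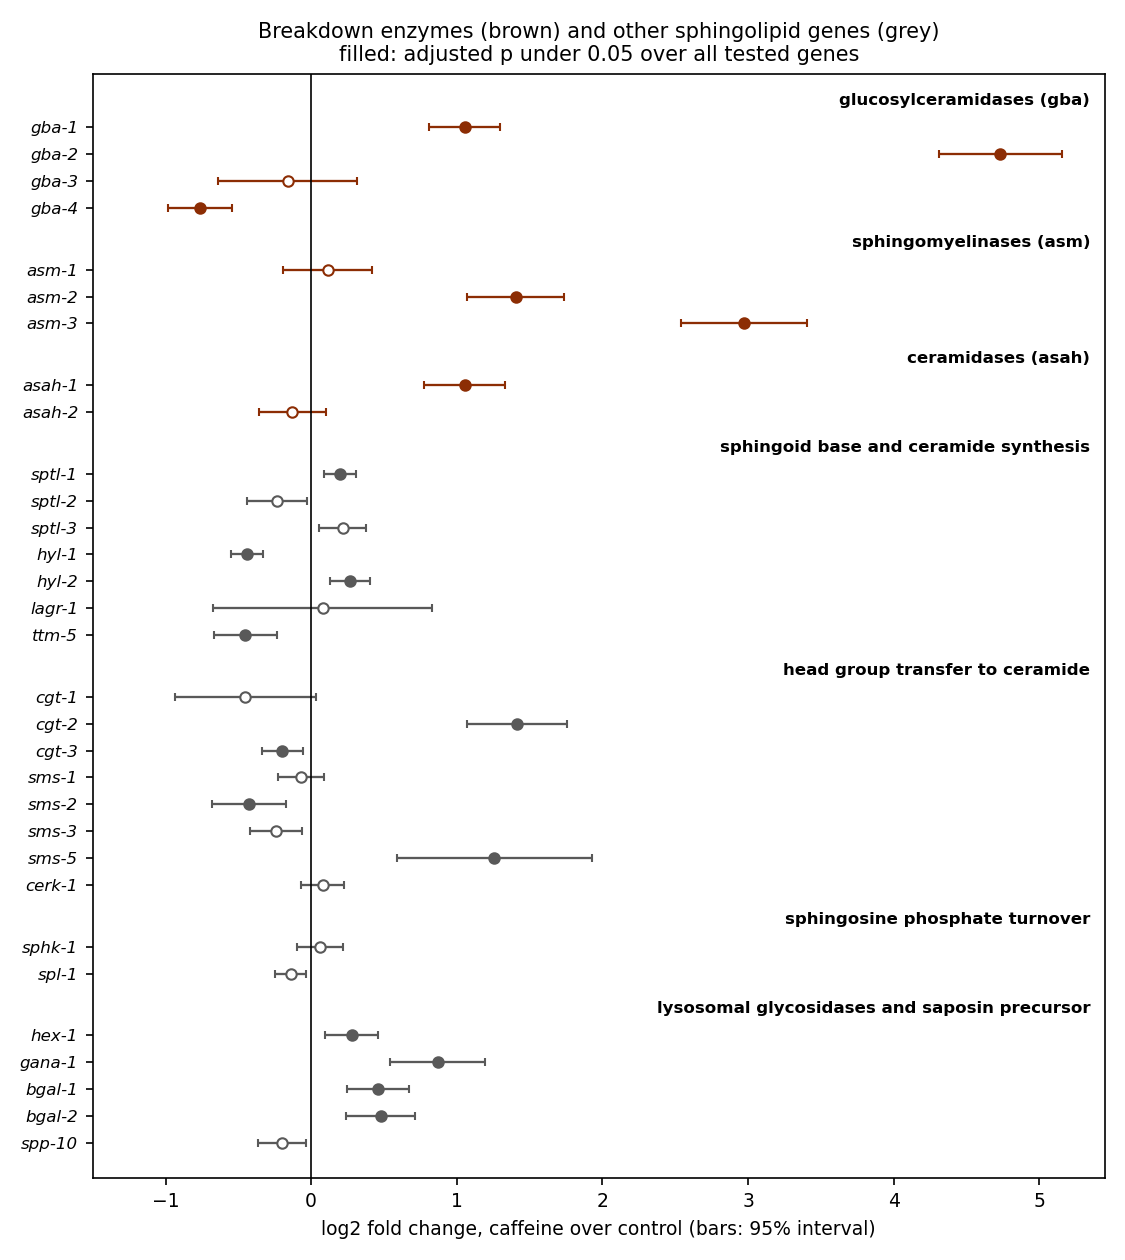
Log2 fold change of caffeine over control (x axis) with 95% intervals for the 9 breakdown enzymes (brown) and 22 other sphingolipid genes (grey), with filled points for genes called over all tested genes. gba-2 at 4.73 and asm-3 at 2.97 lie farthest to the right, and the other sphingolipid genes lie between -0.45 and 1.42.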

How the data were processed

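Per the file headers, the values the authors deposited for each library are expected counts by WormBase gene ID, estimated read numbers with no scaling by depth or length. STAR 2.7.0e, RSEM 1.3.1 and the build WBcel235 (ce11) are named in the submitters' processing notes. The annotation release and the strand setting are not given in the sources used here. Per the labels' protocols, libraries were made with a stranded polyadenylated RNA kit and read from both ends.

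Expected counts were rounded, filtered with filterByExpr (minimum count 10, minimum total 15), scaled with TMM factors (0.960 to 1.07) and compared by the quasi-likelihood test of edgeR 4.0.16 in R 4.3.3, with all 6 libraries and no covariate. P-values were adjusted over 14200 genes. The SE was the log2 fold change divided by the square root of F. CPM used the TMM factors, and exon lengths came from Ensembl release 115. The p-values set the difference between the groups against the spread between pooled biological replicates. DESeq2 1.42.0, limma 3.58.1 (voom), other scalings and filters, a replicate block and leaving out each library were alternatives. Fits of edgeR, DESeq2 and voom were also run on counts simulated from the mean levels and the spread that edgeR estimated. Far fewer genes were changed in the simulation than were called here, so that run checks the code and not the results.

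The members, the lists of sphingolipid and marker genes and the rule for named genes (all members, every listed sphingolipid gene and the 3 genes nearest in pattern to gba-2 and to asm-2) were chosen with earlier results of these data known. The examination of neighbouring genes was added after the values were seen. Coordinates are those of WBcel235.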

Additional observations from a re-analysis of the deposited data

How the results depend on the processing

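The calls of the 9 members, 5 higher and 1 lower, were the same in all 14 alternatives. Of the 9 genes, 7 kept their direction and side of the threshold throughout. The alternatives reuse the libraries and the contrast on which the set was chosen, so this sameness is no separate evidence for the members. The exceptions changed sign. With 1 library left out, the log2 fold change of gba-3 ran from -0.39 to 0.019 (above 0 without caffeine library 1) and that of asm-1 from -0.0099 to 0.21 (below 0 without caffeine library 2). That of lagr-1 ran from -0.14 to 0.33 (below 0 without control library 1, at -0.09, and without caffeine library 2). Among the other 22 sphingolipid genes, 9 kept direction and side in every alternative that tested them. Their count of lower genes was 7 in DESeq2 and 2 with a replicate block, against 4, and leaving out 1 library gave 4 to 9 higher and 1 to 6 lower. The causes were not tested. Over all genes, leaving out 1 library gave 1209 to 2264 higher and 698 to 2512 lower.

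With 3 libraries per group, the data could not settle whether shared replicate numbers mark paired libraries. Deviations from the group means correlated across genes at -0.183, -0.155 and 0.249 between libraries with the same number, and control library 2 correlated best with caffeine library 1 (0.433). With a replicate block 1496 genes were higher and 1074 lower, against 1962 and 1488, and no member's call changed. Depth limits lagr-1 and sms-5 most, which had at most 92 counts in a library.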
